A study of Mus musculus with 12 samples.

Results

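The genes described here encode the proteins of the cytosolic ribosome, measured by RNA sequencing in mouse hearts at embryonic day 9.5. They were chosen by symbol alone: names beginning Rpl or Rps followed by a number, with Rplp0, Rplp1, Rplp2 and Rpsa, and without names marked as pseudogenes. The rule found 82 of the 15663 genes in the joined tables. Of these, 31 encode proteins of the small subunit, 43 of the large subunit and 3 the stalk. A further 3 are paralogs of core genes (Rpl22l1, Rpl7l1 and Rps27l), and 2, Rps3a2 and Rps3a3, are annotated in GENCODE M21 as processed pseudogenes. The paralogs Rpl3l and Rpl39l are not in the tables used here.

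All embryos carried the allele labelled NkxCre, a Cre driver whose promoter and cell type the labels do not spell out, and were labelled strain C57/BL 6. Controls were NkxCre.Asb2fl/+, so they too had a floxed Asb2 allele. The Asb2 cKO group was NkxCre.Asb2fl/fl. The group called Flna-labelled below was NkxCre.Asb2fl/+.Flnafl/fl, and the double mutant was NkxCre.Asb2fl/fl.Flnafl/fl. Each of the 4 groups had 3 libraries of heart total RNA. The labels do not say whether libraries came from separate embryos or pools, so p-values measure only the spread between these libraries. ASB2 is the substrate-binding subunit of a cullin ubiquitin ligase whose known targets include filamins, and Flna encodes filamin A, which crosslinks actin.

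A ribosome joins a small subunit, which reads the message, to a large subunit, which forms peptide bonds. Each core protein is present in one copy per ribosome apart from the stalk proteins, and most of their mRNAs begin with a run of pyrimidines through which mTOR signalling controls their translation. Excess or missing proteins are sensed in part through RPL5 and RPL11, which bind MDM2 and so raise p53. Growing embryonic tissues, the heart among them, need a steady supply of ribosomes, and loss of single ribosomal protein genes affects development in a tissue-selective way, as for Rpl38 in the axial skeleton.

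Listed genes held 25954539 to 42473118 reads per library. Levels are CPM as deposited: read counts divided by a library size that the authors had scaled. Asb2 stood at 183 to 289 CPM in controls and 77.8 to 163 CPM in Asb2 cKO hearts, with 121 to 153 CPM in double mutants and 113 to 197 CPM in Flna-labelled hearts. Flna was not lower in the libraries that carry its label: it was 958 to 1011 CPM in Flna-labelled hearts and 1012 to 1146 CPM in double mutants, against 490 to 721 CPM in controls. A floxed allele can still give reads, so what these levels say of the deletion was not tested, and directions below rest on the labels. Xist, the transcript of the inactive X chromosome, was under 1 CPM in all 3 Flna-labelled libraries, in double mutant libraries 1 and 2, in control library 1 and in Asb2 cKO library 2. It lay between 9.34 and 571 CPM in the other 5. Flna itself is X-linked, so the label Flnafl/fl taken literally means 2 X chromosomes. The low Xist in most libraries so labelled is at odds with that reading, and the labels were not tested. Markers of heart muscle (Myh6, Myh7, Tnnt2, Actc1, Nkx2-5, Myl7, Ttn and Tnni1) summed to 14800 to 37558 CPM, so the labelled tissue was present in every library.

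Ribosomal protein genes have many processed copies in the genome, so part of their sequence is not unique to them. To describe shared sequence, an annotated mRNA of each gene was cut into all its windows of 50 bases. Windows that also occur, on either strand, in an annotated transcript of another gene were counted. Genes that overlap at the same locus were included, so the count is not of processed copies alone. The first 90 coding bases of 4 mRNAs follow, 5′ to 3′, from the GENCODE M21 transcripts of the GRCm38 genome. They were picked to span the range from partly to almost wholly repeated, and to include genes that fell in a comparison below. Capitals mark bases inside a window that another gene's transcript also holds.
Rps27l: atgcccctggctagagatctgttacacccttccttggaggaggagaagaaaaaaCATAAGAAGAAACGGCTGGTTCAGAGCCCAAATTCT
Rpl27: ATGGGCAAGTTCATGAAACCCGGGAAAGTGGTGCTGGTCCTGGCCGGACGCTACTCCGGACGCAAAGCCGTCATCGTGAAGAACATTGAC
Rps6: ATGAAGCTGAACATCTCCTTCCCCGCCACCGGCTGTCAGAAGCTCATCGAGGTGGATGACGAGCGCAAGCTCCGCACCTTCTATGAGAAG
Rps27: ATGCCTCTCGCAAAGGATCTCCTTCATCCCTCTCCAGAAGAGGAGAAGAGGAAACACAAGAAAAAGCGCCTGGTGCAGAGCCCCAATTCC
In Rps27l 22.4% of windows were shared, in Rpl27 53.0%, in Rps6 84.6% and in Rps27 98.7%, the highest of the 82 genes. Rps27 and its paralog Rps27l have coding sequences of the same length, 255 bases, and match at 194 of them (76.1%).

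Levels in control hearts spanned a wide range. Per kilobase of deposited gene length, the ratio of the highest to the lowest control mean was 615. Rpl8 stood first at 1879 CPM per kb, ahead of the stalk gene Rplp1 at 1330, Rpl4 at 1245 and Rps15 at 920 CPM per kb. The lowest were Rpl23a at 3.06, Rpl24 at 3.07, Rps27 at 3.72 and Rpl9 at 5.06 CPM per kb. Rps6, whose protein is the classic target of S6 kinase, stood at 7.02 CPM per kb, and Rpl10, near the peptide-joining centre, at 6.67. Rpl5 and Rpl11, whose proteins enter the ribosome together with 5S RNA, stood at 12.4 and 11.99 CPM per kb. Before division by length they were at 49.3 and 26.9 CPM, so their closeness rests on the deposited lengths, 3987 and 2241 bases. The mRNAs cut into windows were 2045 and 833 bases long, with 93.8% and 62.2% of windows shared.

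The genes with the most repeated sequence were among the lowest. Over the 82 genes, the Spearman correlation of control CPM with the percentage of repeated windows was −0.48, and −0.39 with the level per kilobase. All points come from the same libraries and the windows overlap, so this is a description. The 11 genes with under 25% repeated windows had a median control level of 354 CPM. The median was 128 CPM for the 29 genes between 25% and 50%, 63.8 CPM for the 23 genes between 50% and 80%, and 25.8 CPM for the 19 genes at 80% or more. Exceptions stood on both sides: Rpl24 was low with 14.6% repeated windows, and Rplp1 was high with 60.0%. The transcript cut into windows was 4920 bases long for Rpl24, 5179 for Rps15a and 3706 for Rps20, all under 25% repeated. Their percentages depend on that choice of transcript. How reads with several matches were counted is not given in the sources used here, and the part that this plays in the levels was not tested. The part of repeated sequence in the comparisons between groups was not tested either. Calls among the 40 genes with under 50% repeated windows are counted at the end.

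**Figure D1:**
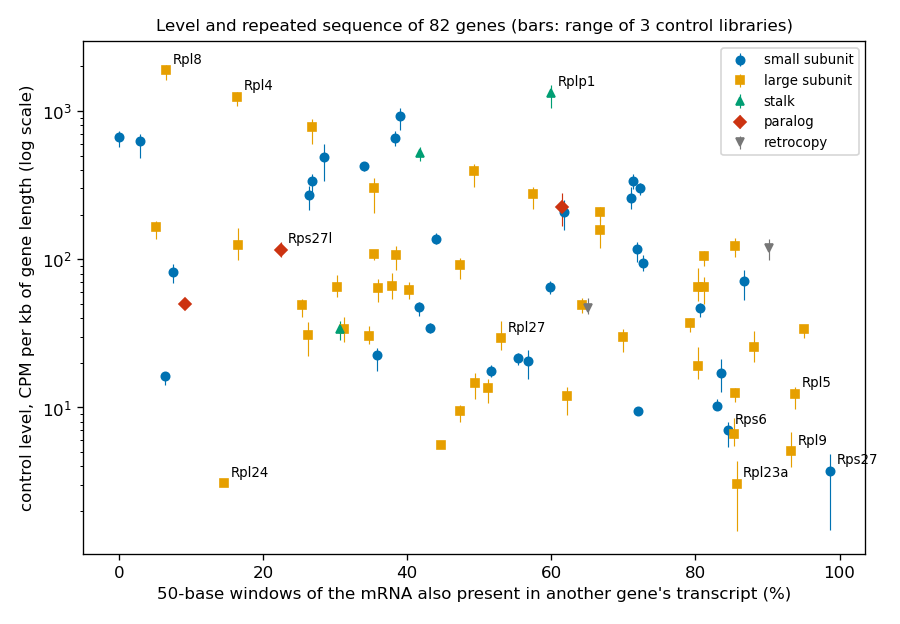
Control level (vertical axis, CPM per kb, log scale) of 82 ribosomal protein genes against the percentage of 50-base windows of the mRNA found in another gene's transcript (horizontal axis); points are means and bars the range of 3 control libraries, with colour and shape for the role. Rpl8 at 6.49% repeated windows lies at the top, and Rps27 at 98.7% lies near the bottom.

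The order of the genes by level per kilobase was nearly the same in every group, with Spearman correlations of 0.9902 to 0.9965 over the 6 pairs of groups. The genes' lengths and sequences are the same throughout. Only Rps27 failed the filter of a mean of 1 CPM. Controls had 1.22, 1.21 and 0.38 CPM of it, the other 9 libraries 0.40 to 0.92 CPM, and that filter left it out of the tests. The other 81 genes were tested in every comparison. With no filter Rps27 was tested as well and was not called in any comparison.

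The 82 genes together took 2.06, 2.21 and 1.62% of the signal in the control libraries, 2.01, 1.79 and 2.12% in Asb2 cKO, 1.84, 1.95 and 1.65% in Flna-labelled, and 2.46, 2.30 and 1.63% in double mutant libraries. The groups overlapped in each comparison. The largest difference was that of the double mutant (2.13% ± 0.44, SD, n = 3) from the Flna-labelled group (1.81% ± 0.15, n = 3), with p = 0.40 by an exact two-sided permutation test. Over the 5 comparisons p ran from 0.40 to 1.0 and adjusted p from 0.75 to 1.0, and 3 against 3 libraries cannot go below 0.10. Control library 3 and double mutant library 3 stood below the other libraries of their groups. Gm26924, the gene with most signal in 11 of the 12 libraries, was at 41870 CPM in that control library and at 12022 and 25730 CPM in the other controls. In double mutant library 3 it was at 30985 CPM, against 10728 and 10129 CPM, while Asb2 cKO library 1 had 30968 CPM and a share of 2.01%. Its part in the share was not tested.

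The genes moved largely together from library to library. Over the 12 libraries the median Pearson correlation of log2 levels was 0.54 across the 3240 pairs of the 81 genes, and 40 genes had r above 0.8 with the median of the family. These values describe 12 libraries that share their scaling, and each gene is part of the median it is set against. A group of 9 genes had r under 0.3: Rpl24, Rpl27, Rpl28, Rpl29, Rpl7l1, Rps13, Rps27a, Rps27l and Rps6. Of these, all but Rpl24, Rpl28 and Rps13 are among the genes that fell in a comparison below. The correlations span all groups, so a fall in some groups can itself lower them, and this overlap is not independent of those falls.

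**Figure D2:**
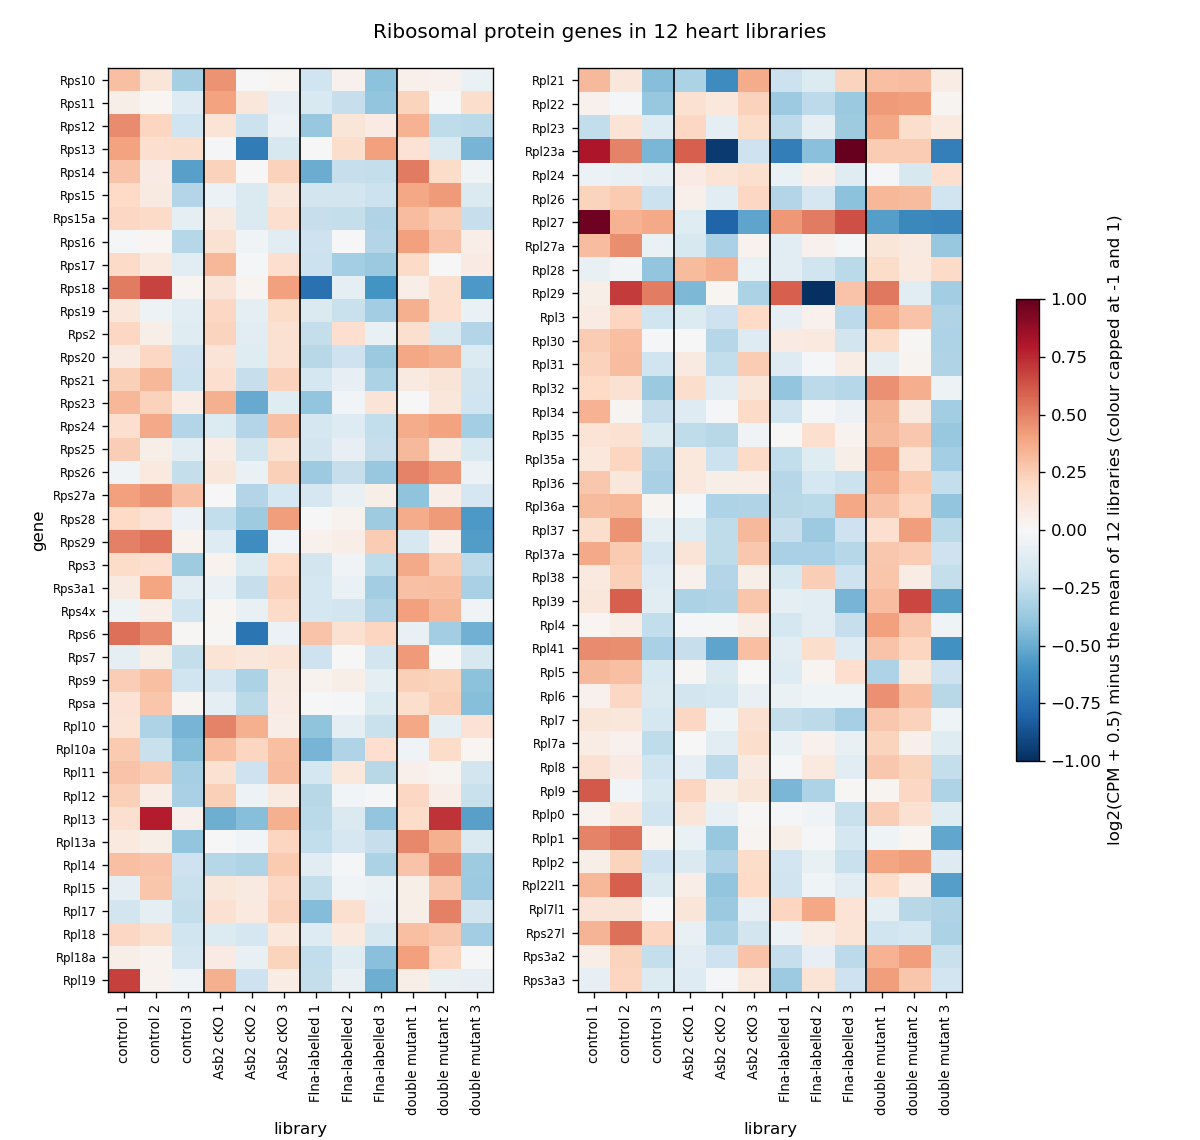
Each row is a ribosomal protein gene reported here and each column 1 of 12 libraries; colour gives log2(CPM + 0.5) minus the gene's mean over the 12 libraries, red for higher and blue for lower, capped at 1. Most rows share a pattern, high in double mutant libraries 1 and 2 and low in control library 3, while Rpl27 is blue in all Asb2 cKO and double mutant libraries.

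Against the control, 4 of the 81 genes fell in Asb2 cKO hearts and none rose (limma on log2(CPM + 0.5), Benjamini-Hochberg adjusted p under 0.05). Of all 14034 genes tested, 21.6% passed in either direction. The 4 genes were Rpl27 and Rpl29 of the large subunit, the paralog Rps27l, and Rps27a, which encodes ubiquitin fused to a small-subunit protein. The median log2 fold change of the family was −0.06, against −0.01 for all genes, and 72 of the 81 genes (88.9%) lay within 0.5 of no change on the log2 scale, against 68.5% of all genes.

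Rpl27, on chromosome 11 at 101442298 to 101445529 (plus strand; GRCm38, GENCODE M21, as for the positions below) and overlapped by no other annotated gene, showed the largest fall. It stood at 49.0, 31.5 and 32.3 CPM in controls and at 22.7, 13.9 and 17.0 CPM in Asb2 cKO hearts. Every mutant library was below every control library. The log2 fold change was −1.05 (SE 0.22, adjusted p = 0.0090). It passed in all 18 alternative settings, with log2 fold changes from −1.23 to −0.85.

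Rps27l, on chromosome 9 at 66946086 to 66949516 (plus strand), is a p53 target in other systems and encodes a protein that can take the place of RPS27. Its levels were 102, 118 and 93.4 CPM in controls and 76.1, 64.3 and 70.6 CPM in Asb2 cKO hearts, without overlap. It fell by 0.56 on the log2 scale (SE 0.14, limma adjusted p = 0.016). Rpl29 went from 99.2, 155 and 136 CPM to 69.5, 96.7 and 76.5 CPM, a log2 fold change of −0.67 (SE 0.18, adjusted p = 0.026). Rps27a went from 16.2, 16.5 and 14.8 CPM to 12.02, 9.73 and 10.6 CPM, a log2 fold change of −0.54 (SE 0.17, adjusted p = 0.049). Clhc1 overlaps Rps27a on the other strand, and whether counting used strand is not given in the sources used here. Rplp1 did not pass, at −0.50 (SE 0.18, limma adjusted p = 0.065), nor did Rps6, at −0.60 (SE 0.26, adjusted p = 0.11). For both, every mutant library was below every control library, by a narrow margin. In the authors' deposited table Rpl27, Rps27l and Rplp1 (FDR 0.022) passed an FDR of 0.05. Rps27a (FDR 0.055) and Rpl29 (FDR 0.14) did not pass there.

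Without control library 2 only Rpl27 passed, and without Asb2 cKO library 1 only Rpl27 and Rps27l. Rps27l had adjusted p = 0.076 without control library 2, and 0.022 to 0.044 without each of the other libraries in turn. Rpl29 was lost without control library 2 or 3 or Asb2 cKO library 1 or 3 (adjusted p 0.070 to 0.10), and Rps27a was lost whichever library was left out (0.054 to 0.16). Ribosomal protein genes are short, with a median deposited length of 1390 bases against 3648 for all genes, and log2 fold changes rose with log10 length (r = 0.20 across genes, which are not independent replicates). With that length trend removed the split turned to 3 higher (Rpl10, Rpl10a and Rps7) and 1 lower (Rpl27), and the family median went to 0.08.

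Markers of red cells also differed between the groups. All 8 markers of primitive red cells, among them Hbb-y, Hbb-bh1, Hba-x, Hba-a1, Gata1, Klf1 and Alas2, fell in Asb2 cKO and in the double mutant against control and in the double mutant against the Flna-labelled group, and 3 of 8 fell in Flna-labelled hearts against control. Their summed level was 7438 to 8033 CPM in controls, 505 to 1193 in Asb2 cKO, 3049 to 3916 in Flna-labelled and 349 to 597 in double mutant libraries, and none of them was at 0 in all libraries of a group. Of the 6 tested between the double mutant and Asb2 cKO none passed. The group means of Rpl27 were 37.6 CPM in controls, 36.0 in Flna-labelled, 17.9 in Asb2 cKO and 15.9 in double mutant hearts. Its levels overlapped between controls and Flna-labelled hearts, and between Asb2 cKO and double mutant hearts. The red cell sums overlapped between Asb2 cKO and the double mutant but not between controls and Flna-labelled hearts. Fewer cells of a type and less RNA per cell cannot be told apart in whole hearts, and the part of red cells in the falls was not tested.

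In the double mutant 6 genes were lower than in the control with limma and none was higher, where 32.3% of all 14015 genes passed. Rpl27, Rps27l and Rps27a, named above, passed again, joined by Rps6, the stalk gene Rplp1 and the paralog Rpl7l1. The control libraries are the same as in the comparison of Asb2 cKO, so the results are not independent. The family median was 0.02 and that of all genes 0.01.

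Rpl27 was at 16.7, 15.6 and 15.5 CPM in the double mutant libraries, all below the lowest control library at 31.5 CPM. Its log2 fold change was −1.18 (SE 0.17, limma adjusted p = 0.0011). Rps27l was at 70.1, 71.2 and 64.6 CPM, with a log2 fold change of −0.60 (SE 0.12, adjusted p = 0.0042). Both passed in all 18 alternative settings.

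Rps6, on chromosome 4 at 86854660 to 86857412 (minus strand), went from 12.9, 12.2 and 8.69 CPM in controls to 8.18, 6.68 and 6.04 CPM. The groups did not overlap, though control library 3 lay close to double mutant library 1, and the log2 fold change was −0.64 (SE 0.21, limma adjusted p = 0.038). Rplp1, one of the pair of acidic proteins that recruit elongation factors, went from 711, 738 and 514 CPM to 488, 509 and 350 CPM. Its log2 fold change was −0.54 (SE 0.18, adjusted p = 0.044), and Rps27a had −0.55 (SE 0.17, adjusted p = 0.030). Rpl7l1, the paralog whose protein acts in the assembly of the large subunit, changed least, by −0.31 (SE 0.10, adjusted p = 0.048), and overlaps Gm26904 on the other strand.

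Without control library 1 or control library 2, 2 genes passed, Rpl27 and Rps27l, and without double mutant library 2 there were 3. Without double mutant library 3 the same 2 genes fell and 6 rose. All 4 other calls were lost without control library 1, control library 2 or double mutant library 3. Those of Rps27a and Rplp1 were also lost without double mutant library 1, and those of Rps6, Rplp1 and Rpl7l1 without double mutant library 2. With the length trend removed 7 genes were higher and 2 lower (r of log2 fold change with log10 length 0.19), among the higher ones Rpl22, Rps26 and Rps4x.

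**Figure D3:**
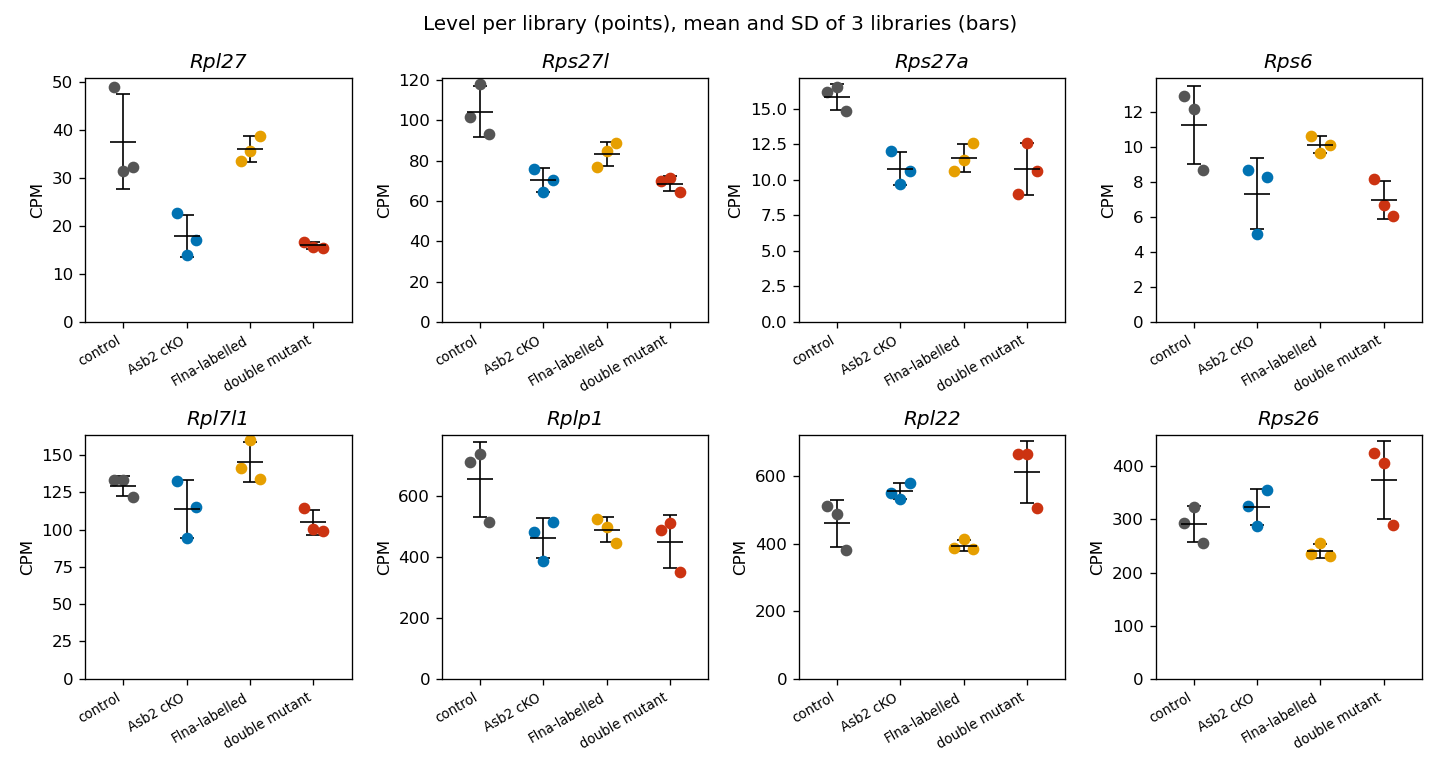
CPM per library (points, vertical axis from 0) of 8 ribosomal protein genes in the 4 genotype groups, with the mean and SD of 3 libraries. Rpl27 lies between 13.9 and 22.7 CPM in all Asb2 cKO and double mutant libraries and between 31.5 and 49.0 CPM in all control and Flna-labelled libraries; Rpl22 and Rps26 are highest in double mutant libraries 1 and 2.

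The double mutant against the Flna-labelled group was the comparison with most calls: 16 genes rose and 4 fell, where 31.5% of all 13954 genes passed. The 20 genes make 24.7% of those tested, below that background. Of the genes that rose, 10 are among the 30 tested of the small subunit and 6 among the 43 of the large subunit. Of all genes tested, 2113 rose and 2281 fell. The 4 that fell were Rpl27, Rps6, Rpl7l1 and Rps27l. The family median was 0.22 and that of all genes −0.02.

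Rpl22 and Rps26 were among the genes with the largest rises. Rpl22, whose protein binds RNA outside the ribosome as well and represses its own paralog Rpl22l1 in other cells, went from 386, 414 and 384 CPM in Flna-labelled hearts to 666, 664 and 507 CPM in double mutants. Its log2 fold change was 0.62 (SE 0.12, limma adjusted p = 0.0065), and that of Rpl22l1 was 0.02 (SE 0.18, adjusted p = 0.95). Rps26 went from 234, 256 and 231 CPM to 425, 406 and 289 CPM, a log2 fold change of 0.61 (SE 0.14, adjusted p = 0.014).

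In both genes double mutant library 3 was the lowest of its group, yet above every Flna-labelled library. Rpl22 passed in all 18 alternative settings and Rps26 in 16. Among the genes named for their roles, Rps19, mutated in Diamond-Blackfan anaemia, rose by 0.39 (SE 0.12, limma adjusted p = 0.037), X-linked Rps4x by 0.46 (SE 0.13, adjusted p = 0.025) and Rpl7 by 0.43 (SE 0.11, adjusted p = 0.016).

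Rpl27 was at 33.6, 35.6 and 38.9 CPM in Flna-labelled hearts, within the control range, and fell by 1.15 on the log2 scale in the double mutant (SE 0.11, limma adjusted p = 3.3e-04). Rpl7l1 went from 142, 160 and 134 CPM to 115, 100.7 and 98.8 CPM, a log2 fold change of −0.47 (SE 0.10, adjusted p = 0.0092). Rps6 had −0.52 (SE 0.17, adjusted p = 0.048) and Rps27l −0.28 (SE 0.09, adjusted p = 0.048). Rpl27 and Rpl7l1 passed in all 18 alternative settings, Rps6 in 8 and Rps27l in 5.

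Rps26 lost its call without Flna-labelled library 1 or double mutant library 2, and Rpl7 without Flna-labelled library 2 or double mutant library 2. Rps4x lost it without Flna-labelled library 1 or 2 or double mutant library 1 or 2. Rps19 kept its call only when double mutant library 3 was left out, Rps6 only without double mutant library 1, and Rps27l lost its call whichever library was left out. The number of genes that rose rested on single libraries and on scaling. Without double mutant library 3, 36 genes rose and 2 fell. Without each of the other 5 libraries in turn, 7 to 15 genes passed in all: 7 without Flna-labelled library 1 or double mutant library 2, 9 without Flna-labelled library 2, 10 without double mutant library 1 and 15 without Flna-labelled library 3. With each library scaled to the total of all genes outside the family, 4 rose and 4 fell, and by the median of ratios 18 rose and 2 fell.

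**Figure D4:**
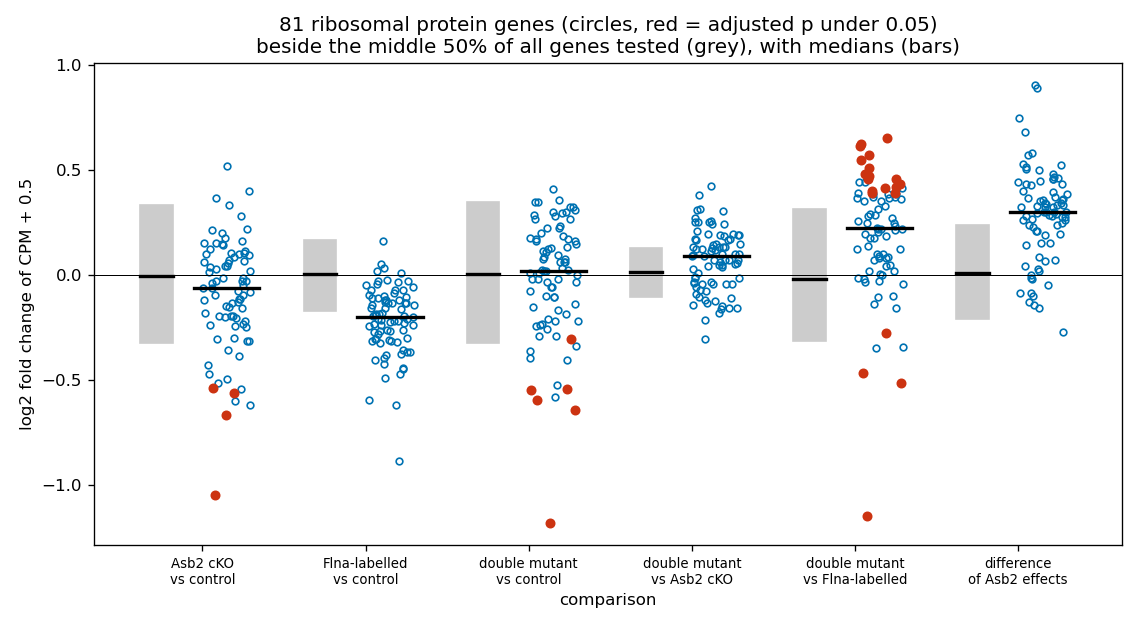
Log2 fold changes (vertical axis) of 81 ribosomal protein genes (circles, red where adjusted p is under 0.05) in 5 comparisons and in the difference of Asb2 effects, with the middle 50% of all genes tested (grey) and medians (black bars). Red circles lie below 0 in both comparisons of Asb2-deleted groups with the control, and mostly above 0 for the double mutant against the Flna-labelled group.

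In Flna-labelled hearts against controls none of the 81 genes passed with limma, where 0.072% of 13891 genes did, 10 in all. At an unadjusted p under 0.05 there were 17 genes, while 13.1% of all genes passed that bound. The quasi-likelihood test of edgeR called none, and DESeq2 called Rpl13 and Rps18, both lower. The family median was −0.20 and that of all genes 0.00, with 76 of the 81 genes below 0. Scaled to the total of genes outside the family, the family median was −0.12 while that of all genes was 0.08.

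The smallest p-values belonged to Rps18, Rps15a and Rpl37a. Rps18 was at 190, 211 and 134 CPM in controls and at 78.4, 124 and 87.2 CPM in Flna-labelled hearts, without overlap, with a log2 fold change of −0.89 (SE 0.21, limma adjusted p = 0.29). In the authors' deposited table Rps18 is the only member past an FDR of 0.05 (log2 fold change −0.89, FDR 0.012). Its sequence is 86.7% repeated and Vps52 overlaps it on the other strand. Rps15a had −0.36 (SE 0.11, adjusted p = 0.29) and Rpl37a −0.47 (SE 0.14, adjusted p = 0.30).

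Between the double mutant and Asb2 cKO groups none of the 81 genes passed with limma, edgeR or DESeq2, where limma called 0.0214% of 14037 genes, 3 in all. At an unadjusted limma p under 0.05 there was 1 gene (1.23%), against 3.36% of all genes. Rpl21 had a log2 fold change of 0.42 (SE 0.22, adjusted p = 1.0) and Rps16 of 0.25 (SE 0.14, adjusted p = 1.0). Rpl27 differed by −0.13 (SE 0.19, adjusted p = 1.0), and all 81 genes lay within 0.5 of no change on the log2 scale.

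Whether the effect of deleting Asb2 differed with the Flna label was tested by the interaction over the 12 libraries: the double mutant minus the Flna-labelled group, less Asb2 cKO minus control. None of the 81 genes passed with limma, edgeR or DESeq2, and limma called 0 of 13981 genes (0%). At an unadjusted limma p under 0.05 there were 5 genes (6.17%), a smaller share than the 9.81% of all genes. Among the 5 were Rpl37a at 0.53 (SE 0.24, limma adjusted p = 0.50) and Rplp2 at 0.50 (SE 0.23, adjusted p = 0.51). Rpl32 at 0.50 (SE 0.23, adjusted p = 0.50) and Rps26 at 0.46 (SE 0.21, adjusted p = 0.50) were others. The family median was 0.30, with 70 of 81 genes above 0, and that of all genes 0.01. The rise of 16 genes in the double mutant against the Flna-labelled group is therefore not shown to differ, gene by gene, from the effect of Asb2 in the other background. Nor is it shown to be the same. In data simulated with a dispersion of 0.03, the interaction recovered 47 of 100 genes changed 2-fold, so smaller differences could be missed.

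Other genes with known roles outside the ribosome or at its working centres did not pass in either comparison with the control. Rpl5 and Rpl11, which act on MDM2, had log2 fold changes of −0.20 (SE 0.16) and 0.02 (SE 0.20) in Asb2 cKO against control, and of −0.29 (SE 0.16) and −0.11 (SE 0.18) in the double mutant. Rpsa, also a laminin receptor, had −0.24 (SE 0.14) and −0.15 (SE 0.17). Rpl38 had −0.13 (SE 0.16) and −0.03 (SE 0.16). Rpl3, at the peptide-joining centre, had −0.08 (SE 0.16) and 0.08 (SE 0.18), and Rplp0, the anchor of the stalk, 0.04 (SE 0.15) and 0.11 (SE 0.14). Rpl10a had 0.40 (SE 0.18) and 0.18 (SE 0.17).

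The 4 X-linked members differed in sign. In Asb2 cKO against control Rpl10 had a log2 fold change of 0.52 (SE 0.21), Rps4x 0.11 (SE 0.14), Rpl39 −0.31 (SE 0.21) and Rpl36a −0.43 (SE 0.18), none past the threshold. The part of the mixed Xist levels in these values was not tested.

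Promoters were examined because most members vary together. RefSeq promoters of GRCm38.p6, from 250 bases before to 50 after the first listed start, were at hand for 60 members and 27025 genes in all, while 22 members had no entry. The ETS core CCGGAA, on either strand, was in 31 of the 60 (51.7%) against 15.2% of all promoters, and its longer form CCGGAAG in 24 of the 60 against 9.14%. The core of the YY1 motif, AAGATGGC, was in 6 of the 60 against 2.87%, and the same letters followed by GG were in 3 of the 60 against 0.899%. The E-box CACGTG was in 8.33% against 7.24%, TATAA in 28.3% against 25.5% and TATAAA in 11.7% against 14.2%. A run of at least 6 C or T from 10 bases before to 12 after the start, on the gene's strand, was in 30 of the 60 against 21.8%, and one of at least 8 in 31.7% against 8.24%. The searches were chosen after the levels were seen. The shares describe letters in a window and were not tested.

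The 80 bases before the first RefSeq start of the pair that fell in both Asb2-deleted groups under most settings are shown, since their levels departed from the rest of the family. The stretch of Rpl27 is chr11:101442165-101442244 and that of Rps27l is chr9:66946006-66946085, both on the plus strand of GRCm38.p6. Capitals mark CCGGAA.
Rpl27 promoter: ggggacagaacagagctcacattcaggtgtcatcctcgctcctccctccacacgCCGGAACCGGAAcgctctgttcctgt
Rps27l promoter: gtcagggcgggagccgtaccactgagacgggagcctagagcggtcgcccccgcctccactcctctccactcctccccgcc
Rpl27 holds the core 2 times in a row, and Rps27l holds 1 copy in its 300-base window, outside the stretch printed. Other members hold the core as well.

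Genes that build ribosomes, supply translation or control both were counted beside the family. The counts below stand beside the 21.6%, 32.3% and 31.5% of all genes that passed in Asb2 cKO against control, in the double mutant against control and in the double mutant against the Flna-labelled group. Of 50 factors of ribosome assembly and ribosomal RNA synthesis, 13 fell and 1 rose in Asb2 cKO against control, 19 fell and 0 rose in the double mutant against control, and 26 fell and 0 rose in the double mutant against the Flna-labelled group. Their medians were −0.34, −0.32 and −0.38, beside −0.01, 0.01 and −0.02 for all genes. None passed in the other comparisons of groups. The lists of related genes were drawn up with results of these data known and are not independent evidence of a direction, and no test set them against the family.

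Bysl, a factor of small-subunit maturation, fell from 89.5 ± 7.75 CPM (SD, n = 3) in controls to 43.4 ± 5.98 CPM in Asb2 cKO hearts, a log2 fold change of −1.04 (SE 0.14, limma adjusted p = 0.0011). It was 46.1 ± 1.61 CPM in double mutants, −0.95 against control (SE 0.11, adjusted p = 2.7e-04). Ltv1, which helps export the small subunit, fell by 1.03 (SE 0.17, adjusted p = 0.0030) and by 0.97 (SE 0.13, adjusted p = 5.8e-04). Bop1, of the large-subunit processing complex, fell by 0.99 in the double mutant against control (SE 0.12, adjusted p = 4.6e-04), and Rrp12 fell by 0.76 in Asb2 cKO (SE 0.15, adjusted p = 0.0069).

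Of 33 translation factors, 3 rose and 3 fell in Asb2 cKO, 9 rose and 9 fell in the double mutant against control, and 11 rose and 9 fell against the Flna-labelled group. The 6 called in Asb2 cKO are a smaller share than that of all genes, and the list's medians were −0.11, 0.00 and 0.13. Eef2, which moves the ribosome along the message and whose mRNA has a pyrimidine start like those of the ribosomal proteins, rose from 2102 ± 156 CPM in controls to 3876 ± 482 CPM in Asb2 cKO hearts (log2 fold change 0.88, SE 0.16, limma adjusted p = 0.0051). Eif4b rose by 0.91 (SE 0.13, adjusted p = 0.0015) and Eif4a2 by 0.84 (SE 0.15, adjusted p = 0.0049).

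Among 21 regulators of ribosome supply, 6 rose and 1 fell in Asb2 cKO, 5 rose and 0 fell in the double mutant against control, and 4 rose and 0 fell against the Flna-labelled group. In both comparisons of the double mutant this is a smaller share than that of all genes, and the list's medians were 0.08, 0.17 and −0.02, so the counts describe single genes. Ddit4, an inhibitor of mTOR complex 1, rose from 30.6 ± 4.88 to 375 ± 67.4 CPM in Asb2 cKO (log2 fold change 3.59, SE 0.17, limma adjusted p = 2.4e-06). Sesn2, a leucine sensor acting on the same complex, rose by 1.93 (SE 0.24, adjusted p = 6.3e-04), and Sp1 by 0.62 (SE 0.14, adjusted p = 0.012). Eif4ebp1, which blocks cap-dependent initiation, rose by 0.83 in the double mutant against control (SE 0.14, adjusted p = 0.0023).

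Of 7 snoRNA host genes tested, 1 rose and 0 fell in Asb2 cKO, 1 rose and 2 fell in the double mutant against control, and 4 rose and 1 fell against the Flna-labelled group. Gas5, a noncoding host with a pyrimidine start, rose by 0.49 in Asb2 cKO (SE 0.13, limma adjusted p = 0.027) and by 0.67 in the double mutant (SE 0.16, adjusted p = 0.012). Snhg4 fell by 0.85 (SE 0.23, adjusted p = 0.017) and Snhg3 by 0.81 (SE 0.24, adjusted p = 0.025) in the double mutant against control. Of 4 further ribosomal genes whose symbols the rule does not take, among them Fau, Gnb2l1 and Rpl36al, Fau rose by 0.68 in the double mutant against control (SE 0.21, adjusted p = 0.030) and by 0.56 against the Flna-labelled group (SE 0.15, adjusted p = 0.025), and no other call was made.

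**Figure D5:**
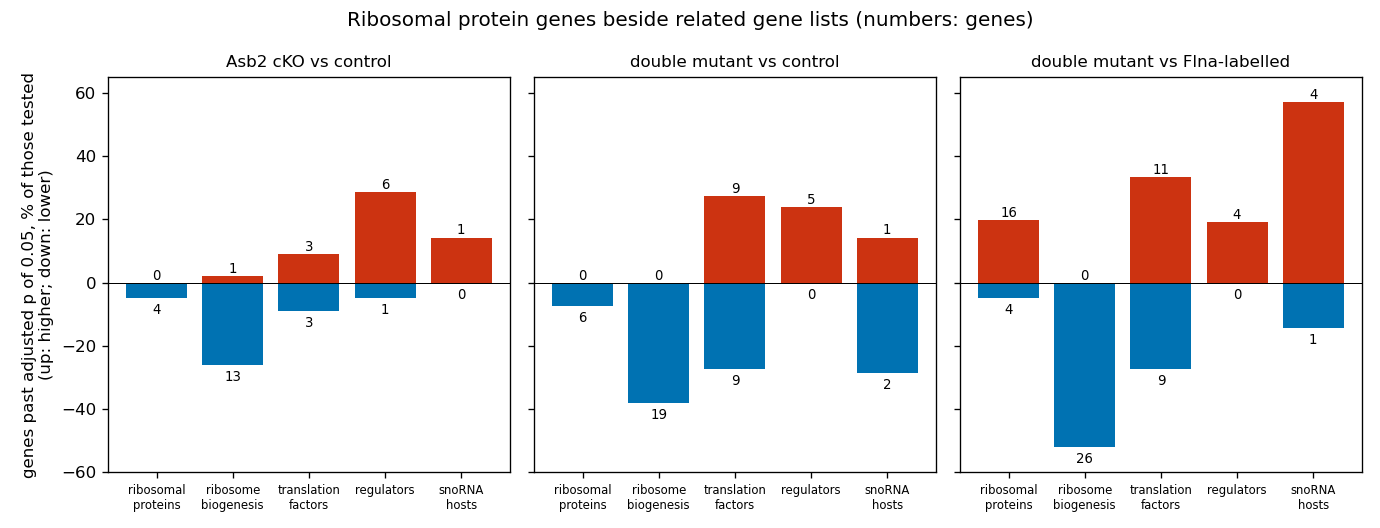
Percentage of tested genes past an adjusted p of 0.05 (vertical axis, red upward for higher and blue downward for lower, numbers of genes at the bars) for 81 ribosomal protein genes and 4 related lists in 3 comparisons. Ribosome biogenesis reaches 26 genes lower and 0 higher in the double mutant against the Flna-labelled group, where 16 ribosomal protein genes are higher and 4 lower.

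Markers of endocardium and endothelium summed to 517 to 637 CPM in controls, 616 to 918 in Asb2 cKO, 459 to 597 in Flna-labelled and 786 to 1041 in double mutant libraries. Of these 6 markers, 1 rose and 2 fell in Asb2 cKO against control, 3 rose in the double mutant against control and 3 rose against the Flna-labelled group. Of 5 pharyngeal epithelium markers 2 rose in Asb2 cKO, 2 in the double mutant against control and 1 against the Flna-labelled group, with sums of 230 to 311 CPM in controls and 419 to 600 CPM in Asb2 cKO. Of 8 heart muscle markers, 1 rose in the double mutant against control and 2 against the Flna-labelled group. None passed in Flna-labelled hearts against control, where all 8 log2 fold changes lay between −1.09 and −0.39 (median −0.49). None passed in the difference of Asb2 effects, where all 8 lay between 0.52 and 1.21. Of the 7 liver bud and yolk sac markers, 1 rose in Asb2 cKO and 1 in Flna-labelled hearts against control, and 5 fell in the double mutant against the Flna-labelled group, with sums of 3.64 to 6.16 CPM in double mutants and 121 to 437 CPM in Flna-labelled hearts. Alb was at 0 in all double mutant libraries. Of 4 epicardium markers 2 fell in the double mutant against the Flna-labelled group, and no marker of neural crest and mesenchyme passed in any comparison of groups. Of the skeletal muscle markers only Myf5 was listed, at 0 to 1.27 CPM. The part of these cell types in the levels of ribosomal protein genes was not tested.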

How the data were processed

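RNA sequencing of 12 heart libraries was processed with STAR, HTSeq and edgeR on mm10, per the submitters' processing notes, which give no versions; annotation, strand and read length are not given in the sources used here. The deposited signal values are CPM that the authors computed on scaled library sizes, not plain CPM as the tests had assumed. Values are whole multiples of what 1 read is worth (0.0239 to 0.038 CPM; 100% whole within 0.01 read), so read counts were recovered for edgeR and DESeq2 as alternatives. The deposited log2 fold changes and FDR values (p-values adjusted) are the authors' own, and are used only where named. The 4 tables were joined on gene ID; 14810 of 15663 genes are in all libraries, and 13 unnamed columns were not used.

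Tests used limma 3.58.1 (R 4.3.3; trend, robust) on log2(CPM + 0.5) of every gene whose mean reached 1 CPM in the libraries compared, adjusted over all genes; fold changes are on that scale, which understates those of low genes. Alternatives were pseudocounts of 0.1 and 2, no filter or 5 CPM, 2 scalings, removal of the length trend (lowess span 0.3), limma without trend and robust, a joint fit, a replicate block, edgeR 4.0.16, DESeq2 1.42.0 and each library left out; one alternative, genes with under 50% repeated windows, was chosen after seeing the data, as were the repeat measure with its bins and the sequences shown. The fits were first tested on simulated data. Libraries of a group differed by more than sampling noise (lowest mean chi-square 20.3 over 12 pairs).

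Members and lists were chosen with earlier results of these data known. Genes named were those of set roles, the 3 largest changes each way past the threshold (or the 3 smallest p), and up to 3 per related list; some are not reported here.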

Additional observations from a re-analysis of the deposited data

How the results depend on the processing

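The family's counts depended on single libraries. Leaving out 1 library at a time gave 1 to 4 genes called in Asb2 cKO against control (4 with all libraries), 2 to 8 in the double mutant against control (6) and 7 to 38 in the double mutant against the Flna-labelled group (20), with 0 in the other comparisons. Genes with under 50% repeated windows, 40 in all, were a setting chosen after seeing the data. Of these 40, 1 was called in Asb2 cKO (Rps27l) and 2 in the double mutant (Rpl7l1 and Rps27l), both against control. Rpl27, Rpl29, Rps27a, Rps6 and Rplp1, called there with all genes, have more repeated windows and were not among the 40. In the double mutant against the Flna-labelled group 14 of the 40 were called, 12 higher and 2 lower. DESeq2 called 2 in Flna-labelled hearts against control. In the double mutant against the Flna-labelled group 8 were called when libraries were scaled to genes outside the family and 12 with limma without trend and robust. With the replicate block the counts were 2, 14 (4 higher, 10 lower) and 28 (24 higher, 4 lower) in the same 3 comparisons. The labels' replicate numbers do not say that libraries share a litter or day, and the correlation of same-numbered libraries ran from −0.46 to 0.43, above 0.1 for all 3 pairs in 0 of 6 pairs of groups. For 26 single genes followed through 468 alternatives, 374 kept direction and side of the threshold, 93 lost the call, 1 gained it and none reversed; the causes were not tested. The filter at 1 CPM left out Rps27; without it Rps27 was not called, and the part of depth and of repeated sequence in its level was not tested.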
